A study of Mus musculus with 2 samples.

Results

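The genes described here are 6 inhibitory components of myeloid signalling: the receptor gene Lilrb4, the phosphatase genes Ptpn6 and Inpp5d, and the adaptor genes Dok1, Dok2 and Dok3. They were taken by symbol from the 16614 genes listed for each library, and all 6 were found in both. Bone marrow cells of C57BL/6 mice were grown for 3 days with M-CSF, which turns marrow precursors into macrophages, and then treated for 2 days with RANKL, the cytokine that drives macrophages towards osteoclasts. Poly-A RNA was sequenced from 1 wild-type (WT) library and 1 Foxo3 knockout (KO) library. Both cultures received the same treatment, and no library without RANKL was analysed here. The knockout allele, its breeding, the sex and age of the mice and the number of animals behind each library were not stated in the labels used here. The series asked about FoxO3, a forkhead transcription factor, in osteoclast formation.

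Osteoclast precursors receive activating signals through receptors that pair with adaptors carrying an immunoreceptor tyrosine-based activation motif (ITAM), which dock the kinase Syk. Inhibitory receptors carry a related motif (ITIM) that, once phosphorylated, docks phosphatases which take phosphate off tyrosines or off membrane inositol lipids. The DOK proteins are docking adaptors that bring inhibitors of Ras and other brakes to activated kinases. In macrophages, loss of such brakes is known to raise responses to growth factors, Fc receptors and RANKL.

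Short motifs of the kinds through which such proteins can connect were searched for in the coding sequences. Lilrb4 is drawn here from its coding sequence in GENCODE M21 (the mouse gene that annotation calls Lilrb4a), with the codons of each ITIM match in capitals. A match is a codon for serine, isoleucine, valine or leucine, then tyrosine after 1 further codon, then isoleucine, leucine or valine after 2 more. The first line is codons 298 to 303 and the second codons 320 to 325, out of 335.
Lilrb4 first tail motif: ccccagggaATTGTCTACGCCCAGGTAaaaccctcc
Lilrb4 second tail motif: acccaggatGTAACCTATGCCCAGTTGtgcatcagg
A further match, at codons 8 to 13, lies at the start of the protein, in the signal sequence region, and its near copy in Gp49a (called Lilr4b in the annotation) matches there too. Gp49a holds 303 codons and neither of the 2 tail matches. Inpp5d, whose protein SHIP-1 removes phosphate from inositol lipids, carries 2 coding matches to NPXY, the tyrosine motif that phosphotyrosine-binding domains such as those of the DOK and SHC adaptors recognise. They are at codons 915 to 918 and 1018 to 1021 of 1191, again in capitals.
Inpp5d first motif: gagatgatcAATCCAAACTACattggtatg
Inpp5d second motif: atgtttgagAACCCACTGTATggatccgtg
Of the adaptors, Dok1 had 6 coding matches to a tyrosine followed after 2 residues by proline, the form that RasGAP docks on, Dok2 had 4 and Dok3 had 0. The same form had 2 matches in Inpp5d, 1 in Lilrb4 and 1 in Gp49a, and the ITIM form also matched in Ptpn6, at codons 536 to 541. All of these are matches of letters, not measured sites.

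No unit is named for the values, and FPKM, a count of fragments scaled by gene length and amount sequenced, was inferred from the numbers. Comparisons between genes and between libraries rest on that inference, and the scaling used is not given. Differences are given as a log2 ratio, KO over WT, after 1 FPKM was added to both values, which understates differences of low genes. With 1 library per genotype no value has a replicate error, there is no test, and each difference describes these 2 libraries. Foxo3 itself was listed at 10.3 FPKM in WT and 0.548 FPKM in KO cells, so the targeted gene was far lower in the library labelled KO. Of 10003 genes at 1 FPKM or more in at least 1 library, called measured genes, 97.8% lay within 0.5 of 0 on this log2 scale, and the median was 0.03. The lowest values piled up at what 1 fragment is worth, which put depth at about 25300000 fragments for the WT and 34900000 for the KO library. In bulk RNA, fewer cells of a type and less RNA per cell cannot be told apart.

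All 6 genes were measured, and all stood above 10 FPKM in both libraries. They did not move as a block. Dok2 and Lilrb4 were lower in the KO library, at 65.5% and 70.6% of their WT values, while Dok3, Ptpn6 and Dok1 were higher by 18.9%, 13.6% and 8.95%, and Inpp5d differed by less than 1%. No member reached 2-fold, a size that 0.2% of measured genes reached downwards and 0.12% upwards, or 1.5-fold on this scale, which 0.94% and 0.41% reached. Dok2 lay just short of 1.5-fold and passed it with a pseudocount of 0.25 (-0.60), with trimmed-mean scaling (-0.59) and with centring on the median gene (-0.59). A smaller size on the same scale, at least 20% lower or 25% higher after 1 FPKM was added, is used for all later counts as well. It was passed by 2 of the 6 downwards, against 4.16% of measured genes, and by 0 upwards, against 2.96%. In all, 3 members had a log2 ratio below 0, against 42.4% of measured genes, and the median over the 6 was 0.06 against 0.03 over all measured genes. The 6 were chosen with these results known, so the counts are a description.

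**Figure D1:**
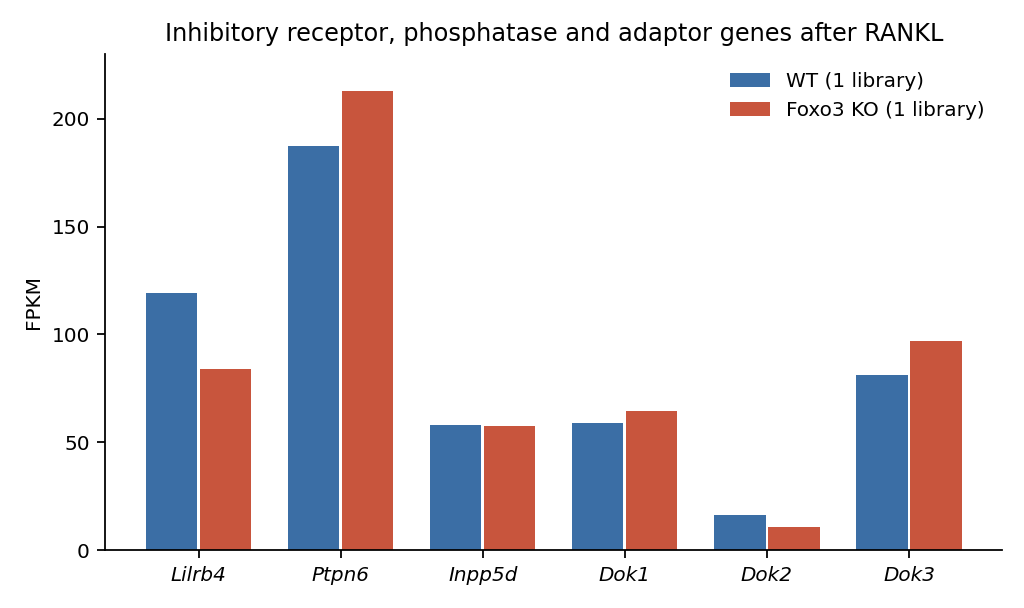
Level of each member in FPKM (vertical axis, from 0) in the WT library (blue) and the Foxo3 KO library (red), 1 library each, so no error bars can be drawn. The Lilrb4 bar drops from 119.0 to 84.0 FPKM and the Dok2 bar from 16.0 to 10.5 FPKM, while the Ptpn6 and Dok3 bars are taller in the KO library.

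Lilrb4, an inhibitory receptor of macrophages and mast cells also known as gp49B, lies on chromosome 10 (mm10, 51490956 to 51496611, plus strand). It stood at 119.0 FPKM in WT and 84.0 FPKM in KO cells, a log2 ratio of -0.50. In order of level it was the second of the 6 in the WT library and the third in the KO library, where Dok3 stood above it. Of measured genes, 151 had a lower ratio, 1.51% of them. About 4200 fragments in WT and 4000 in KO cells lay behind these values, by the estimate from low genes and the longest coding transcript. From counting error alone the log2 ratio without a pseudocount, -0.50, had an approximate 95% interval of -0.56 to -0.44, which leaves out the spread between cultures.

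The near copy Gp49a, whose protein lacks the tail motifs printed above, ends 4.25 kb before Lilrb4 starts. It was lower in the KO library as well, at 51.9 FPKM in WT and 28.9 FPKM in KO cells, a log2 ratio of -0.82. The coding sequences of the pair were identical at 96.0% of 907 aligned bases. Of the windows of 50 bases along the Lilrb4 transcript 27.6% also occur in Gp49a, and of windows of 100 bases 14.3%, so a share of reads could have been given to either. Every window of Lilrb4 also lies in the annotated model Gm49339, which joins the 2 genes, whereas the other 5 members shared no window of either length with another gene. Summed, Lilrb4 and Gp49a stood at 170.9 FPKM in WT and 113.0 FPKM in KO cells, 66.1% of the WT value. Lilrb4 made up 69.6% of that sum in WT and 74.4% in KO cells. Both genes of the pair, and their sum, were thus lower in the KO library.

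The upstream sequence of Gp49a is shown because it alone, among the upstream windows found for these genes, holds the FoxO core TGTTTAC, in capitals. It is 250 bases of RefSeq sequence (GRCm38.p6, plus strand, chr10:51480362-51480611), and the match lies 70 to 76 bases before the annotated start.
Gp49a upstream: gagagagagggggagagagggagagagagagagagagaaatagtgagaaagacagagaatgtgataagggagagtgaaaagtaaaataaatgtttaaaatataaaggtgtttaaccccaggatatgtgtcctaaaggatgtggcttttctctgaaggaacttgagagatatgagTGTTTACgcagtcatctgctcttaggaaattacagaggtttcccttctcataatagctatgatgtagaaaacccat
On either strand, 3.17% of 32851 upstream windows of this length hold TGTTTAC. The windows of Inpp5d, Ptpn6 and Dok3 hold none, and no window was matched for Lilrb4, Dok1 or Dok2. The match is a description of letters, and binding was not measured.

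Lilrb4 shares chromosome 10 with Foxo3, the targeted gene, and starts 9.21 Mb beyond it. Apart from Gp49a, 14 measured genes lie between them. Their log2 ratios ran from -0.29 for Cd24a to 0.21 for Lace1, with a median of 0.09. Below 0 were 3 and above 0 were 11, against 42.4% and 57.6% of all measured genes. Among the 14 only Ascc3, at 8.32 Mb, starts farther from Foxo3 than Hace1, at 3.30 Mb (both chosen after their values were seen). The stretch before Lilrb4 is therefore thinly covered. Beyond Lilrb4 the next measured gene, Gopc, stood 839.2 kb away at 10.4 FPKM in both libraries. Within 1 Mb of Lilrb4 only 4 genes were measured, Gp49a among them, with 2 below and 2 above 0 and a median of -0.03.

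**Figure D2:**
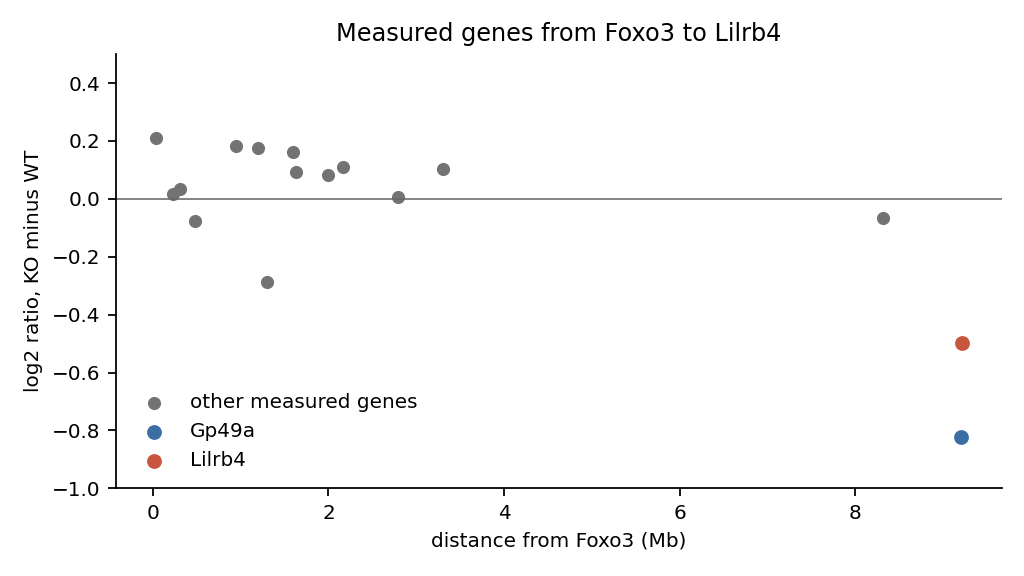
Log2 ratio (KO minus WT, FPKM + 1) of each measured gene by its distance from Foxo3 in Mb, along chromosome 10 as far as Lilrb4. The 14 grey genes lie between -0.29 and 0.21, and Gp49a (blue, -0.82) and Lilrb4 (red, -0.50) lie below all of them.

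Of the phosphatases that such receptors dock, Ptpn6 was higher in the KO library and Inpp5d was nearly level. Ptpn6, which encodes SHP-1, the SH2-domain tyrosine phosphatase lost in motheaten mice, lies on chromosome 6 (124720707 to 124738714, minus strand). It was the most abundant member, at 187.6 FPKM in WT and 213.0 FPKM in KO cells, a log2 ratio of 0.18, with a ratio above that of 88.2% of measured genes. Of its adjacent measured genes Phb2, at 3.76 kb, had a log2 ratio of 0.18 and Grcc10, at 0.469 kb, one of 0.29. The 35 measured genes within 1 Mb had a median of 0.07, with 27 above 0 (57.6% of all measured genes were) and 31 below the ratio of Ptpn6. An antisense model, Gm20531, overlaps 6.96% of the exon bases of Ptpn6, and strand use in counting is not given.

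Inpp5d, on chromosome 1 (87620312 to 87720507, plus strand), stood at 57.9 FPKM in WT and 57.6 FPKM in KO cells. Its log2 ratio of -0.01 was the nearest to 0 of the 6. With about 7200 and 9900 fragments behind it, counting error alone allowed a log2 ratio from -0.05 to 0.04. Its upstream window (GRCm38.p6, plus strand, chr1:87620062-87620311) is shown because it holds GAGGAAG, a core bound by PU.1, the factor that sets myeloid identity, 14 to 20 bases before the start.
Inpp5d upstream: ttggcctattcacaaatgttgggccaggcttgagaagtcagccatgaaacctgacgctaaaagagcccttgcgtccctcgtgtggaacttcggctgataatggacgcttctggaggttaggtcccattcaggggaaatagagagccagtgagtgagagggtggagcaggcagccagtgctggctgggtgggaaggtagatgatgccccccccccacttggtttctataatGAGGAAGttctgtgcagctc
On either strand 10.6% of all windows of this length hold that core. Together the phosphatase pair stood at 245.5 FPKM in WT and 270.6 FPKM in KO cells. The level of Ptpn6 relative to Lilrb4 was 1.58 in WT and 2.54 in KO cells.

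The 3 adaptors of the DOK family differed among themselves. Dok2, whose protein binds RasGAP and restrains Ras in myeloid cells, lies on chromosome 14 (70766036 to 70778495, plus strand). It was the lowest of the 6 in level, at 16.0 FPKM in WT and 10.5 FPKM in KO cells, and the lowest in log2 ratio, at -0.57. Without the added 1 FPKM its WT value was 1.53 times its KO value. Of measured genes 105 had a lower ratio, 1.05% of them. About 730 and 660 fragments lay behind it, and counting error alone gave an approximate 95% interval of -0.76 to -0.46 around a log2 ratio without a pseudocount of -0.61. Its 12 measured neighbours within 1 Mb ran from -0.10 to 0.21 in log2 ratio, with a median of 0.09. Xpo7, the adjacent gene, whose span overlaps that of Dok2 but whose exons do not, stood at 5.60 FPKM in WT and 5.86 FPKM in KO cells.

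Dok1, the founding member of the family and a partner of Dok2 at RasGAP, lies on chromosome 6 (83030934 to 83033471, minus strand). It stood at 59.0 FPKM in WT and 64.3 FPKM in KO cells, a log2 ratio of 0.12. Dok3, which binds SHIP-1 and the adaptor Grb2 and does not dock RasGAP, lies on chromosome 13 (55523231 to 55529296, minus strand). It stood at 81.4 FPKM in WT and 96.8 FPKM in KO cells, a log2 ratio of 0.25, the highest of the 6, with 94.2% of measured genes below it. Of its adjacent measured genes Ddx41, 1.11 kb away, had a log2 ratio of -0.06 and Pdlim7 one of 0.05. The 30 measured genes within 1 Mb had a median of -0.03, with 12 above 0 (57.6% of all measured genes were).

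The 3 adaptors summed to 156.5 FPKM in WT and 171.6 FPKM in KO cells. Dok2 made up 10.3% of that sum in WT and 6.12% in KO cells, while Dok3 made up 52.0% and 56.4% and Dok1 37.7% and 37.5%. Dok1 was 3.68 times the level of Dok2 in the WT and 6.12 times in the KO library. The family total was thus not lower in the library where Dok2 was. Of the remaining DOK genes, Dok4 alone was measured, at 1.22 FPKM in WT and 1.10 FPKM in KO cells, while Dok5, Dok6 and Dok7 stayed below 1 FPKM in both.

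**Figure D3:**
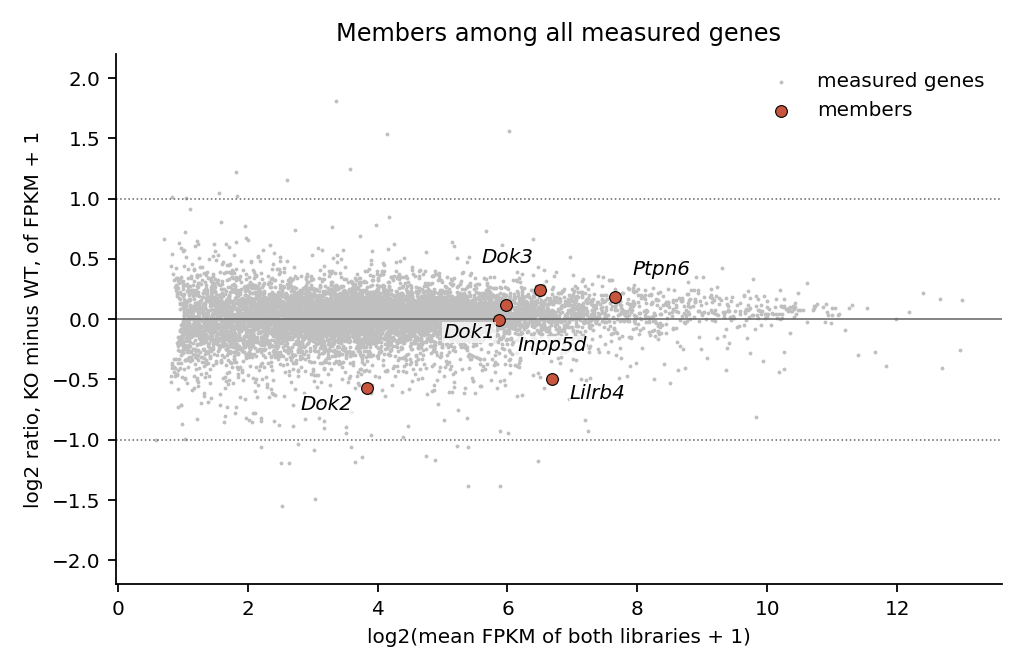
Log2 ratio (KO minus WT, FPKM + 1) of each measured gene by its mean level, with the 6 members in red and dotted lines at 2-fold (4 genes lie beyond the plotted range). Among those 4 are Actr3 (0 FPKM in WT, 433.9 FPKM in KO cells) and Adcy7 (38.2 and 0 FPKM). Both were chosen after their values were seen, and why each is listed at 0 in 1 library was not tested. Dok2 at -0.57 and Lilrb4 at -0.50 sit towards the lower edge of the genes of their level, Dok3 at 0.25 towards the upper edge, and Inpp5d near 0.

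With 2 libraries a gene's pattern is its pair of values, and the genes nearest to each member in both, by distance on the log2(FPKM + 1) scale, were looked up. Nearest to Dok2 were Mertk, the receptor tyrosine kinase by which macrophages take up dying cells, at 17.1 FPKM in WT and 10.9 FPKM in KO cells (distance 0.09), and Slc7a8 (0.10). For Lilrb4 they were Slc11a1, the phagosomal metal transporter NRAMP1, at 113.8 and 80.9 FPKM (distance 0.08), and Slc48a1, a haem transporter (0.11). Prdm1 and Nmt1 were nearest to Dok1, Mrpl34 and Pik3r5 to Dok3, Hdlbp to Inpp5d, and Plxnd1 and Srsf5 to Ptpn6, all within 0.05.

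Other inhibitory receptors of myeloid cells were looked at as a list without Lilrb4. The list holds Gp49a as the near copy, although its protein lacks the 2 tail ITIM matches. Of 18 measured receptors 12 were below 0 and 6 above, against 42.4% and 57.6% of all measured genes. The median was -0.23 against 0.03 over all measured genes, and none of the receptors reached 2-fold. With 1 FPKM added, at least 20% lower were 4 of the receptors (4.16% of all measured genes were), and 1 was at least 25% higher (2.96%). The 4 became 7 when the pseudocount was 0.25 and 2 when it was 5. Besides Gp49a the lower ones among the named genes were Cd200r1, the receptor for CD200, at 31.9 FPKM in WT and 24.4 FPKM in KO cells, Fcgr2b, the inhibitory IgG receptor that docks SHIP-1, at 46.8 and 37.0 FPKM, and Cd300a, at 21.3 and 16.8 FPKM. Lilrb3, or PIR-B, a receptor with near copies that docks SHP-1, stood at 104.0 and 89.1 FPKM, a log2 ratio of -0.22. Cd72, a C-type lectin that docks SHP-1, went the other way, at 53.8 FPKM in WT and 76.9 FPKM in KO cells, a log2 ratio of 0.51. Sirpa, the CD47 receptor and the most abundant of the list, stood at 564.9 and 563.8 FPKM. The list thus spread from -0.82 to 0.51, and Lilrb4 at -0.50 would lie second from the low end, after Gp49a. Apart from Gp49a the lowest measured gene of the list was Cd200r1 at -0.37, which is above Lilrb4.

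Related phosphatases lay close to 0, like Inpp5d. Of 24 measured SH2, tyrosine and inositol phosphatases 15 were below 0 and 9 above, against 42.4% and 57.6% of all measured genes. Their median was -0.05, and 0 were 20% lower or 25% higher, against 4.16% and 2.96% of all measured genes. Inpp5k was at -0.23 and Ptpn18 at 0.23. Inppl1, the SHIP-2 gene and closest relative of Inpp5d, had a log2 ratio of 0.17, with 41.2 FPKM in WT and 46.6 FPKM in KO cells, and Ptpn12 was the most abundant of the list, at 140.9 and 150.0 FPKM.

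Other adaptors and ubiquitin ligases that restrain kinase signalling were below 0 in 12 of 19 measured cases, against 42.4% of all measured genes. Their median was -0.07. Of these 19, 1 was at least 20% lower (4.16% of all measured genes were), and 0 were 25% higher (2.96%). It was Ubash3b, a phosphatase-like brake on Syk named after its values were seen, at 8.22 FPKM in WT and 5.91 FPKM in KO cells. The ligase gene Cbl, which marks activated receptors for removal, had a log2 ratio of -0.29, the Ras inhibitor gene Spred2 one of -0.26 and Rasa3, a Ras GTPase-activating protein, one of -0.24. Spred1, the most abundant, stood at 193.1 FPKM in WT and 207.2 FPKM in KO cells. Known binding partners of the 6 were below 0 in 14 of 20 cases, against 42.4% of all measured genes, the median being -0.07. At least 20% lower were 3 of them, against 4.16% of all measured genes. With a pseudocount of 5 both this count and that of the restraining adaptors were 0. Those 3 were Gab3, named after its values were seen, and the receptors Fcgr2b and Cd300a, so 2 of them also belong to the receptor list. The partners that dock on DOK proteins and SHIP-1 in the cytoplasm were near 0: Grb2 had a log2 ratio of -0.01, Rasa1, the RasGAP gene, one of -0.08, and Shc1 one of -0.08 (all chosen after their values were seen).

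The activating side showed no common direction. Of 23 measured ITAM receptors, adaptors and kinases 10 were below 0 and 13 above, near the 42.4% and 57.6% of all measured genes. Their median was 0.04, against 0.03 over all measured genes. With 1 FPKM added, at least 20% lower were 2 (4.16% of all measured genes were), and 1 was at least 25% higher (2.96%). Trem2, a receptor that signals through DAP12, stood at 172.4 FPKM in WT and 121.2 FPKM in KO cells, a log2 ratio of -0.50 like that of Lilrb4. The higher one was Sirpb1a, named after its values were seen, at 1.05 FPKM in WT and 1.63 FPKM in KO cells. Fgr, also named after its values were seen, passed 25% only without the added 1 FPKM, at 2.66 and 3.40 FPKM. The adaptor gene Lat2 was at -0.36 and the kinase gene Tec at -0.30, while Tyrobp, which encodes DAP12 and was the most abundant, was at 0.04. Syk, chosen after its values were seen, stood at 94.3 and 97.9 FPKM.

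**Figure D4:**
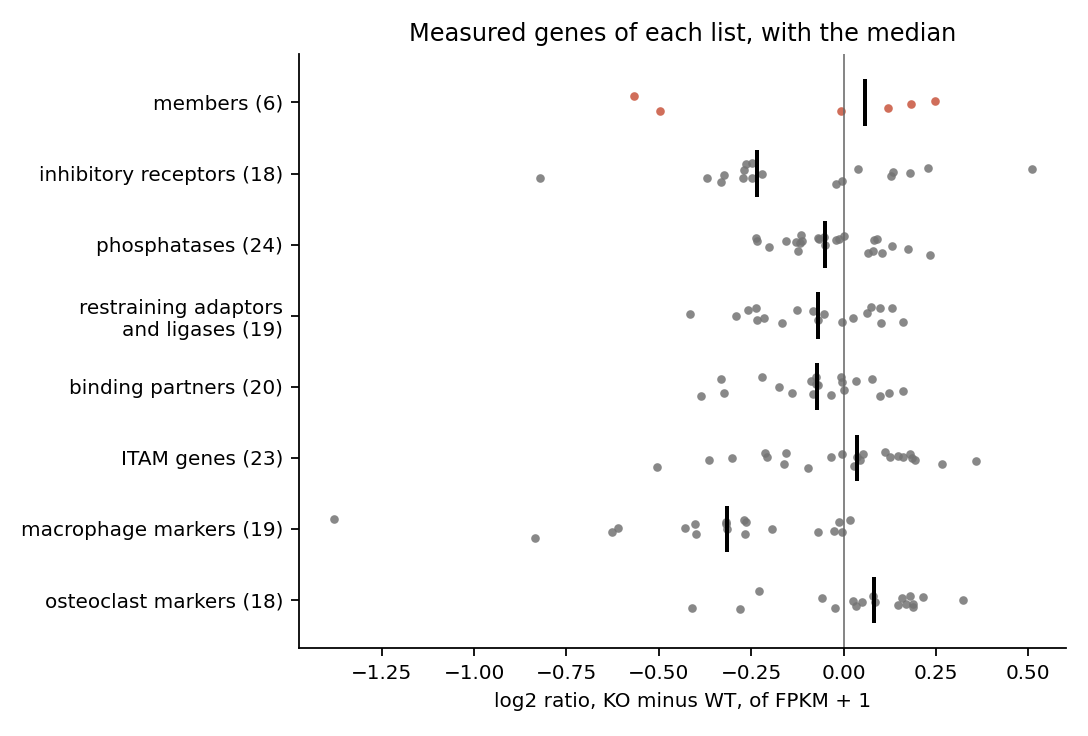
Log2 ratio (KO minus WT, FPKM + 1) of each measured gene in the members, 5 related lists and 2 marker lists, 1 point per gene with vertical jitter, a black bar at the median and the number of genes in brackets. The members split into 2 low and 4 near or above 0. The inhibitory receptor list, which holds Gp49a, has a median of -0.23, and the macrophage markers lie lowest, at a median of -0.32.

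Markers of the cells in the culture differed between the libraries as well. Of 20 macrophage markers 19 were measured and 18 were below 0, against 42.4% of all measured genes. Their median was -0.32, against 0.03 over all measured genes. Their summed level was 10765 FPKM in WT and 8654 FPKM in KO cells. Lyz2, the lysozyme gene and the most abundant, made up most of that sum, at 7501 FPKM in WT and 5674 FPKM in KO cells. Its log2 ratio was -0.40, while Csf1r, the M-CSF receptor gene, and Cd68 were at -0.01 and -0.02 (both chosen after their values were seen). Of 18 osteoclast markers 13 were above 0, against 57.6% of all measured genes, with a median of 0.08. Their summed level was 22118 FPKM in WT and 24834 FPKM in KO cells, led by Acp5. Among the 5 below 0 were Cd109 at -0.41, Itgb3 at -0.28 and Mitf at -0.23, all chosen after their values were seen. The lowest macrophage markers, also chosen after their values were seen, were Cd36 at -1.38, Fcgr3 at -0.83, Mrc1 at -0.63 and Mertk at -0.61. Dok2 and Lilrb4 lay within the range of the macrophage markers, which ran from -1.38 to 0.02. Dok1, Dok3 and Ptpn6 lay within that of the osteoclast markers, from -0.41 to 0.32, and Inpp5d within both. Of all measured genes 87.7% lay within 0.25 of 0, inside the osteoclast range, so lying in such a range does not tie a gene to a cell type. What part the marker difference has in the values of the members was not tested.

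Among markers of other cells, those of neutrophils, Pf4 and Clec10a reached the levels of some members, and most others were near 0. Of 14 neutrophil markers 11 were measured, summing to 180.6 FPKM in WT and 177.4 FPKM in KO cells, with S100a8 the most abundant at 70.2 FPKM in the WT. Cd4 was the single measured marker of T, NK and B cells, and 4 of that list, among them Cd3e and Pax5, were listed at 0 in both libraries. Of markers of mast cells, basophils and eosinophils, of interest since mast cells carry gp49B, only Prg2 was measured, at 1.71 and 1.05 FPKM, and Fcer1a and Ms4a2 were listed at 0 in both. Stromal markers summed to 8.72 FPKM in WT and 8.58 FPKM in KO cells over 4 measured genes, with Col1a1 highest and Lum listed at 0 in both. Dendritic markers summed to 41.7 and 38.0 FPKM over 3, most of it Clec10a. Of the erythroid and megakaryocyte markers Pf4 alone was measured, at 55.7 and 26.2 FPKM.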

How the data were processed

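The authors deposited 1 table of values per library. The unit was read as FPKM from the deposited values, since no header or label names it, and every value holds an added constant of 0.000001, which was subtracted. TopHat, edgeR and mm10 appear in the submitters' processing notes, with no version and no role. Which tool made the values, with which annotation and scaling, is not given in the sources used here. A gene was measured at 1 FPKM or more in at least 1 library. Members and lists were chosen with earlier results of these data known. Named genes are the members, Foxo3, the near copy Gp49a, and in each pathway list the 3 of largest absolute log2 ratio at 10 FPKM or more and the most abundant, the most abundant of each marker list, the 2 nearest genes in level, and adjacent measured genes. A gene that the rule takes is not reported here. Other names say that they were chosen after their values were seen. Of file symbols, 15876 matched GENCODE M21 (mm10) directly and 640 through 1 RefSeq synonym. Exon overlaps ignored strand. Upstream windows and their motif matches come from RefSeq, GRCm38.p6. Depth was estimated, after the data were seen, from genes with 1 annotated transcript under 0.2 FPKM. Fragment numbers and intervals are approximate and cover counting error only. Alternatives were other pseudocounts, scalings, minimums and thresholds. Of the steps, only the log2 ratio, the trimmed-mean scaling and the 2-fold calls were tested on simulated data. Tools were Python 3.11.15, numpy 2.4.6, pandas 2.3.3, scipy 1.17.1, Biopython 1.88 and matplotlib 3.10.9.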

Additional observations from a re-analysis of the deposited data

How the results depend on the processing

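The 25 recomputed log2 ratios of the members kept their signs and moved by less than the spread of the 400 measured genes nearest in level, under pseudocounts of 0.25 and 5, trimmed-mean scaling, centring on the median gene and, for Lilrb4, summing with Gp49a, which gave -0.59 and was chosen after seeing the data. Trimmed-mean scaling and centring shift all genes by nearly the same amount, -0.03, against spreads of 0.10 or more. They could therefore not have moved a member past its spread. A pseudocount cannot change the sign of a ratio. Gp49a was itself lower in the KO library, so its sum with Lilrb4 had to stay below 0. The signs kept under those settings were thus fixed in advance. Dok1 was at 0.095 with trimmed-mean scaling and 0.096 with centring, less than the spread of 0.103 among genes of its level. Dok2 ran from -0.60 with a pseudocount of 0.25 to -0.44 with a pseudocount of 5. The inhibitory receptor median was -0.0952 with a pseudocount of 5. With no minimum 3 of the remaining DOK genes were below 0, and with a minimum of 10 FPKM 7 of the restraining adaptors were, which follows from the number of genes kept. Genes at least 2-fold lower numbered 39 with a pseudocount of 0.25 and 6 with 5, and those 2-fold higher 5 with a pseudocount of 5 and 5 with a minimum of 10 FPKM. At 1.5-fold 94 were lower and 41 higher, and 416 were at least 20% lower and 296 at least 25% higher. These follow from the construction of the scale and threshold. No paired analysis was possible because WT and KO have 1 library apiece, which also leaves no library to drop.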
